A study of Mus musculus with 12 samples.

Results

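The coronin family was followed here as 6 genes, Coro1a, Coro1b, Coro1c, Coro2a, Coro2b and Coro7, in murine conventional and regulatory T cells that carried or lacked coronin 1A. The members were taken by matching the Ensembl IDs of the count table to these symbols. All 6 were found among 45706 counted genes, and all 6 passed the filter on low counts, which left 15922 genes for testing. Polyadenylated RNA had been sequenced from 4 groups of 3 libraries. These were conventional T cells of WT genotype, conventional T cells of Coro1-/- genotype (KO), regulatory T cells of WT genotype and regulatory T cells of KO genotype. The comparisons ask what loss of coronin 1A did to the RNA of each cell type, and the title of the series places them in work on allograft rejection. The labels give no age, strain, sorting scheme or deletion design. They do not say that the libraries come from separate animals, so p-values measure only the spread between these libraries, which may be technical.

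Coronins are actin-binding proteins built around a propeller of WD40 repeats. The type I members, coronins 1A, 1B and 1C, sit at branched actin networks, where they act with the Arp2/3 complex and with cofilin to organise and disassemble filaments. The type II members, coronins 2A and 2B, are less well described, and coronin 2A is also known from the NCoR co-repressor complex. Coronin 7 carries a pair of propellers in tandem and is known for a role at the Golgi. Coronin 1A is the form typical of blood cells, and naive T cells depend on it for their survival in the periphery.

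Libraries held 19686870 to 33404302 counts in genes. Expression is given as CPM, a gene's counts relative to the size of its library, with libraries scaled to each other by the trimmed mean of M values (TMM), and tests are edgeR's quasi-likelihood F test with Benjamini-Hochberg adjustment over all genes at a threshold of 0.05. Foxp3, the lineage factor of regulatory T cells, stood at 23.7 ± 3.07 CPM in WT and 50.1 ± 18.9 in KO conventional libraries, against 520.1 ± 53.4 and 573 ± 113 (SD, n = 3) in regulatory ones. The 4 regulatory T cell markers Foxp3, Il2ra, Ikzf2 and Ctla4 together summed to 82.4 to 133 CPM in WT and 202 to 356 in KO conventional libraries, without overlap, and to 1501 to 1734 and 1290 to 1744 in regulatory ones. Ikzf2, the gene of the transcription factor Helios, stood at 35.3 ± 13.3 and 166 ± 51.2 CPM in WT and KO conventional libraries, and at 304 ± 8.75 and 317 ± 51.9 (SD, n = 3) in regulatory ones. Cd4 stood at 1176 ± 31.4 and 719.5 ± 74.6 CPM in conventional libraries and at 494 ± 66.9 and 419 ± 71.6 (SD, n = 3) in regulatory ones. Cd8a, a CD8 gene, stood at 0.175 and 0.596 CPM in WT and KO conventional libraries and at 24.3 and 19.8 CPM in regulatory ones. Cd8b1, the other CD8 gene read, stood at 20.5 and 10.04 CPM in conventional and 27.9 and 16.4 CPM in regulatory libraries (means, n = 3). The 4 regulatory T cell markers thus followed the cell type labels, but both CD8 genes were higher in regulatory libraries within each genotype. The groups also differed in markers of other cells. Xist alone was read in 4 libraries, the WT and KO conventional replicates 1 and 2, and Y-linked genes alone in 6. Both were read in WT regulatory replicate 3 and KO regulatory replicate 1, and results without these 2 libraries are given where they change. The contrast between cell types is therefore partly also one between libraries with Xist and libraries with Y-linked reads.

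Markers of cells other than T cells moved with genotype and with cell type, and every coronin value below was read in libraries that carry these shifts. The 6 T cell markers (Cd3d, Cd3e, Cd3g, Cd5, Cd6 and Lat) summed to 3063 to 3352 CPM in WT conventional, 1949 to 2316 in KO conventional, 1683 to 2323 in WT regulatory and 1083 to 1663 in KO regulatory libraries. The 9 macrophage and monocyte markers summed to 204 to 285 CPM in WT conventional and 1352 to 3003 in KO conventional libraries, and to 684 to 937 and 731 to 1607 in WT and KO regulatory ones. The 8 neutrophil markers summed to 4.73 to 10.3 and 325 to 644 CPM in WT and KO conventional libraries, and to 46.9 to 83.3 and 98.8 to 223 in regulatory ones. Between genotypes, myeloid markers thus differed most in conventional libraries, where neither sum overlapped. In regulatory libraries the neutrophil sums did not overlap either, while the macrophage and monocyte sums did. The 7 NK cell markers summed to 71.6 to 90.8 CPM and 323 to 592 in WT and KO conventional libraries, and to 53.0 to 89.2 and 92.0 to 103.8 in regulatory ones. The 7 dendritic cell markers summed to 37.0 to 50.6 and 135 to 257 CPM in conventional, and to 206 to 244 and 281 to 438 in regulatory libraries. The 8 B cell markers summed to 3.11 to 4.24 and 25.4 to 45.8 CPM in WT and KO conventional libraries, and to 3495 to 4829 and 3867 to 4721 in regulatory ones. In every regulatory library the B cell sum also exceeded the T cell sum, from lists of 8 and 6 genes. B cell transcripts thus stood far higher in both regulatory groups, with no overlap with the conventional ones. The 6 erythroid markers showed the same order, at 6.03 to 24.95 and 30.1 to 76.1 CPM in conventional and 5044 to 9214 and 5729 to 7520 in regulatory libraries. The 5 platelet markers summed to 29.0 to 65.1 CPM in WT conventional, 56.6 to 128 in KO conventional, 10.6 to 22.3 in WT regulatory and 27.4 to 52.4 in KO regulatory libraries, and the 8 stromal and endothelial markers to 262 to 278, 232 to 247, 228 to 354 and 283 to 486. No marker of these lists was at 0 in a whole group. In such bulk RNA, fewer cells of a type and less RNA per cell cannot be told apart, and the part of these other cells in the coronin results was not tested.

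**Figure D1:**
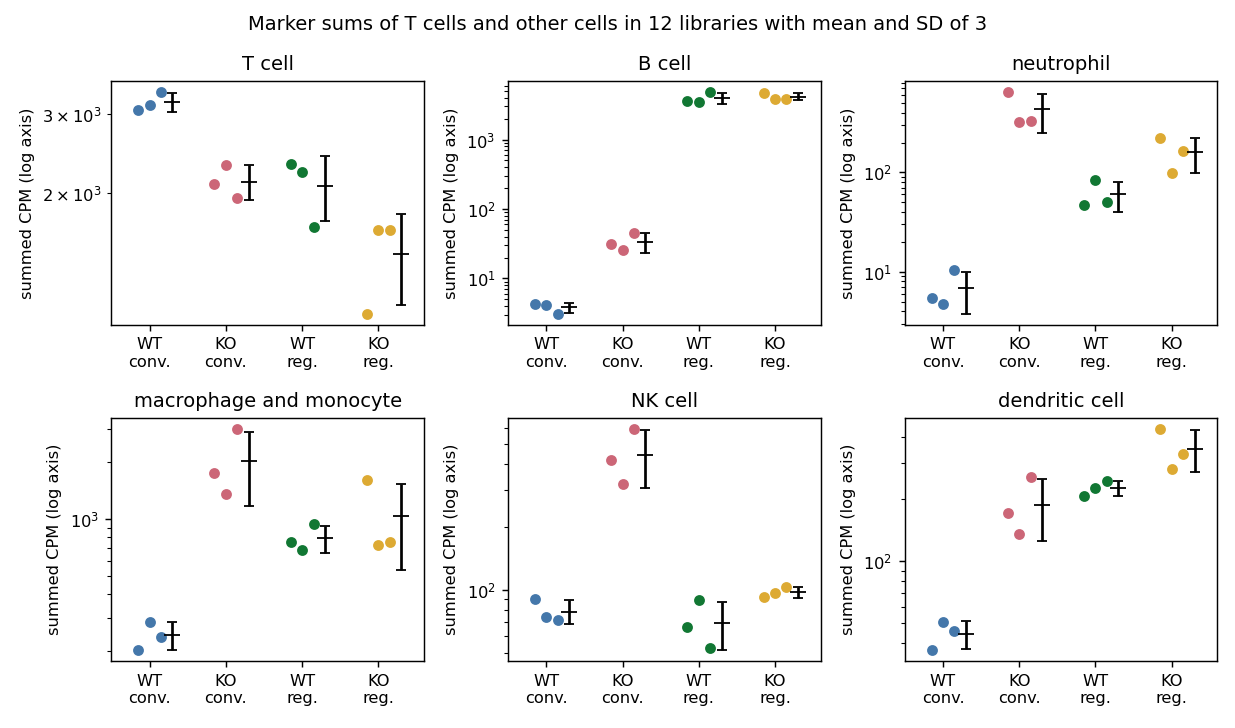
Summed CPM (log axis) of 6 marker lists, with 1 point per library, 4 groups of 3 libraries, and the mean and SD beside each group. The T cell sum is highest in WT conventional libraries (3063 to 3352 CPM), B cell markers are far higher in both regulatory groups (3495 to 4829 and 3867 to 4721 CPM), and the neutrophil, macrophage and NK lists are highest in KO conventional libraries.

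Coro1a, the targeted gene (ENSMUSG00000030707, GRCm38 chr7:126699773-126707787, minus strand), was by far the main coronin transcript of WT cells and was nearly gone in KO cells. It measured 2124, 2361 and 2399 CPM in WT conventional replicates 1 to 3 and 2712, 2503 and 2312 CPM in WT regulatory ones. In KO libraries it measured 44.1, 47.3 and 44.1 CPM in conventional and 20.9, 28.8 and 30.4 CPM in regulatory cells. All 6 WT libraries stood far above all 6 KO libraries. The level fell to 1.97% of WT in conventional cells (log2 fold change -5.67, SE 0.15, edgeR adjusted p = 2.75e-09) and to 1.06% in regulatory cells (-6.55, SE 0.15, adjusted p = 8.62e-10). WT conventional and regulatory libraries overlapped, and their difference of 0.13 (log2) did not pass the test (edgeR adjusted p = 0.347, 95% interval -0.13 to 0.39). It passed at 0.19 without the 2 libraries holding both Xist and Y-linked reads (adjusted p = 0.0439) and at 0.76 when libraries were scaled to the 6 T cell genes (adjusted p = 2.28e-04).

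Coro1a reads remained in every KO library. They numbered 1450 to 1652 per KO conventional library and 669 to 999 per KO regulatory library. Within KO, their level fell by 0.76 on the log2 scale from conventional to regulatory cells (SE 0.12, edgeR adjusted p = 2.14e-04), with no overlap between the groups. Scaled to the 6 T cell genes, the same difference was -0.22 and did not pass (adjusted p = 0.174). The count table gives 1 value per gene, so the exons these reads come from were not analysed here. Shared sequence with the other members was small, since no stretch of 50 bases occurs in the annotated transcripts of any 2 of the 6 genes (15 pairs compared). At 25 bases, 1 pair shared any, Coro1a and Coro1c with 2 stretches.

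Genes beside the deleted locus were checked for the same loss of reads. Bola2, whose span overlaps the end of Coro1a on the opposite strand, was lower in KO conventional cells by -0.33 (edgeR adjusted p = 0.0377) and stood at 0.09 in regulatory cells (adjusted p = 0.670). Slx1b, a structure-specific nuclease subunit gene beyond Bola2, stood at -0.25 (adjusted p = 0.0216) and -0.28 (adjusted p = 0.0608). Mapk3, which encodes the kinase ERK1, stood at 0.18 (adjusted p = 0.135) and 0.27 (adjusted p = 0.101). None of the 3 neighbours came near the change of Coro1a.

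**Figure D2:**
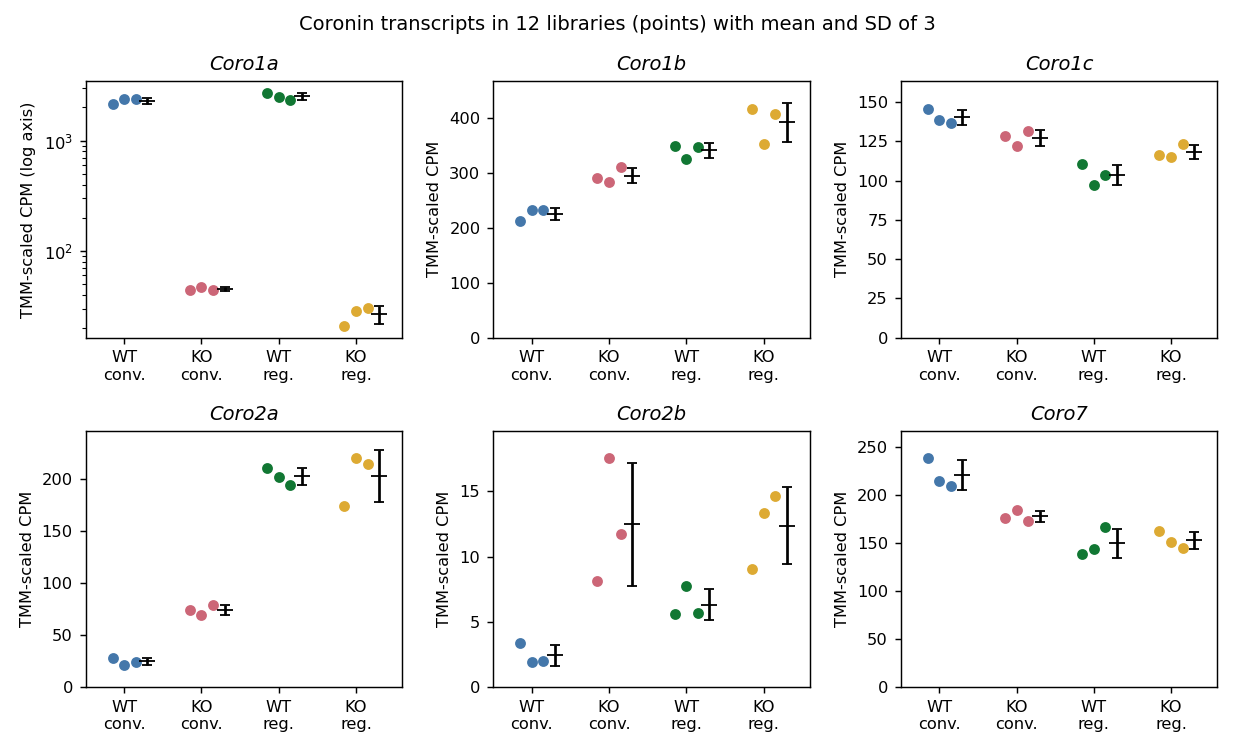
TMM-scaled CPM of the 6 coronin genes (Coro1a on a log axis, the others from 0), with 1 point per library, 4 groups of 3 libraries, and the mean and SD beside each group. Coro1a separates by genotype, and Coro2a by cell type and, in conventional cells, by genotype as well. Coro2b separates by genotype within each cell type, with a 5.08-fold rise in conventional cells. Coro1b, Coro1c and Coro7 differ by smaller steps, which for Coro1c and Coro7 depend on the scaling of the libraries.

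Of the 6 members, all passed the test between KO and WT conventional cells, 3 higher (Coro1b, Coro2a, Coro2b) and 3 lower (Coro1a, Coro1c, Coro7). In this comparison 48.7% of all genes tested were called, 23.3% higher and 25.4% lower, so a call alone says little about a coronin and sizes matter more. The 3 lower calls include Coro1c and Coro7, which were on the higher side when libraries were scaled to the 6 T cell genes. In regulatory cells Coro1a alone was called, so 0 members were higher and 1 lower, against a background of 7.83% of genes, 4.01% higher and 3.82% lower. Between cell types 3 members were higher and 2 lower in WT regulatory cells, where 39.1% of all genes were higher and 33.3% lower. In KO 2 members were higher and 2 lower, beside 36.1% and 31.7% of all genes. Among the lower calls between cell types, Coro1c in WT and Coro7 in WT and KO stood above 0 with T cell gene scaling.

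Coro1b, the widely expressed type I member (ENSMUSG00000024835, chr19:4148619-4154035, plus strand), was higher in KO than in WT cells and higher in regulatory than in conventional cells. In conventional cells the WT libraries held 213, 232 and 232 CPM and the KO libraries 291, 284 and 311 CPM. The regulatory WT libraries held 350, 326 and 348 CPM and the KO libraries 418, 353 and 407 CPM. The 4 groups ranked KO regulatory, WT regulatory, KO conventional and WT conventional, and no neighbours in that order overlapped. KO exceeded WT by 0.39 (log2, SE 0.07, edgeR adjusted p = 9.48e-04), a 1.31-fold rise, in conventional cells. The regulatory difference was 0.20 (SE 0.07) and missed the threshold (adjusted p = 0.0999, 95% interval 0.05 to 0.35 before adjustment). It passed without KO regulatory replicate 2 (0.28, adjusted p = 0.0483) and with scaling to the 6 T cell genes (0.74, adjusted p = 0.0328). From conventional to regulatory cells Coro1b rose by 0.60 in WT (SE 0.07, adjusted p = 1.31e-05) and by 0.41 in KO (SE 0.07, adjusted p = 2.76e-04). These 2 contrasts called 72.4% and 67.8% of all genes. The end of Coro1b overlaps the start of Ptprcap, a gene for a CD45-associated protein on the same strand. Ptprcap went the other way in conventional KO cells (-0.50, adjusted p = 0.00191) and stood at -0.06 in regulatory ones (adjusted p = 0.736).

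Coro1c, another widely expressed type I member (ENSMUSG00000004530, chr5:113842436-113908758, minus strand), showed small differences whose sign depended on cell type and on scaling. In conventional cells the WT libraries held 146, 139 and 137 CPM and the KO libraries 128, 122 and 132 CPM. In regulatory cells the WT libraries held 110.4, 97.5 and 103 CPM and the KO libraries 117, 115 and 123 CPM. WT stood above KO in conventional cells and below KO in regulatory cells, with no overlap in either. The conventional difference was -0.14 (SE 0.05, edgeR adjusted p = 0.0474), turned to 0.45 with scaling to the 6 T cell genes (adjusted p = 0.0647), and missed the threshold there and in 19 of the 23 other alternatives. Leaving out any single conventional library ended the call, with values from -0.17 to -0.11. So did leaving out WT regulatory replicate 3 (-0.14), KO regulatory replicate 1 (-0.14) or KO regulatory replicate 2 (-0.08). The regulatory difference was 0.19 (SE 0.05, adjusted p = 0.0554) and missed the threshold. It passed in 5 of 23 alternatives, which were T cell gene scaling (0.72, adjusted p = 0.0288), upper-quartile factors (0.21, 0.0413), DESeq2 (0.19, 0.0224), the stricter filter (0.21, 0.0372) and leaving out WT regulatory replicate 1 (0.23, 0.0435). Between cell types in WT it was -0.44 (SE 0.05, adjusted p = 2.17e-05), but 0.20 with T cell gene scaling (adjusted p = 0.360). In KO it was -0.10 (adjusted p = 0.106), -0.16 without KO regulatory replicate 2 (adjusted p = 0.0401), and 0.47 with T cell gene scaling (adjusted p = 0.0445).

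Coro2a and Coro2b, the type II members, carried the largest differences of the family beside the deleted gene, and both were higher in KO than in WT conventional cells. The 250 bases before their annotated starts (RefSeq, build GRCm38.p6) are shown because these upstream sequences differ in composition. In the same contrast 23.3% of all genes were called higher, and a link between the sequences and the higher KO levels was not tested. Capitals mark the GC box GGGCGG on either strand, the only motif of those searched that occurs in either window. The window of the first Coro2a start is chr4:46601930-46602179 and that of Coro2b chr9:62537045-62537294, both on the minus strand.
Coro2a: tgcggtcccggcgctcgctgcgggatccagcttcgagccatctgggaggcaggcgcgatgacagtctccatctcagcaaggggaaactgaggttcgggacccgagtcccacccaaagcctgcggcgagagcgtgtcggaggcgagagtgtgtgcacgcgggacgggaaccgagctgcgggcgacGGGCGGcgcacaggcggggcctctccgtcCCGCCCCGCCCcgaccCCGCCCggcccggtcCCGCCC
Coro2b: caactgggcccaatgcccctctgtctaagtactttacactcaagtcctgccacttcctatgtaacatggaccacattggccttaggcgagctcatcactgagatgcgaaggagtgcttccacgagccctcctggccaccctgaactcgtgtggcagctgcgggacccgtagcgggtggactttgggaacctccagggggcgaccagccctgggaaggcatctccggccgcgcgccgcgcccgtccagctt
The Coro2a window holds 5 GC boxes, a pair of them overlapping by 1 base, and is 73.6% G or C. The Coro2b window holds none and is 62% G or C, against a median of 52.4% over 32851 mouse promoter windows of this length. A GC box occurs in 32.7% of those windows. The other motifs searched, on both strands, were the ETS core CGGAAG (in 13.6% of windows), the forkhead motif GTAAACA (3.17%) and the cAMP response element TGACGTCA (1.55%). Neither window holds any of these 3, which says only that these letters are not there. A second annotated Coro2a start has a window with none of the 4 motifs.

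Coro2a (ENSMUSG00000028337, chr4:46536937-46602202, minus strand) was the coronin most different between the cell types. WT conventional libraries measured 28.4, 21.8 and 24.4 CPM, and KO conventional ones 74.1, 69.3 and 78.9 CPM. The regulatory WT libraries held 210.2, 202 and 195 CPM and the KO libraries 174, 219.9 and 215 CPM. KO conventional libraries lay between the WT conventional and the regulatory ones and overlapped with neither, while the 2 regulatory groups overlapped. In conventional cells Coro2a rose 2.98-fold with the knockout (log2 1.58, SE 0.11, edgeR adjusted p = 2.52e-06). In regulatory cells the difference was 0.00 with an SE of 0.10 (adjusted p = 0.988), and its 95% interval ran from -0.22 to 0.22. With T cell gene scaling the regulatory difference was 0.51 and passed (adjusted p = 0.0426). In WT, regulatory exceeded conventional cells 8.13-fold (log2 3.02, SE 0.11, adjusted p = 3.53e-09), and in KO 2.74-fold (1.45, SE 0.10, adjusted p = 4.20e-07). Both kept their direction and their call in all 23 alternatives. No alternative removes the B cell and erythroid RNA of the regulatory libraries, and its part in these differences was not tested. Tbc1d2, a Rab GTPase regulator gene whose span ends 2188 bp from the Coro2a start, had 16 to 102 counts per library. It stood at 2.08 in KO against WT conventional cells (adjusted p = 3.38e-05) and at 0.07 in regulatory cells (adjusted p = 0.860). The neighbour on the other side, Trim14, lies closer, at 796 bp. In the same 2 contrasts Trim14 stood at 0.03 (adjusted p = 0.799) and -0.04 (adjusted p = 0.845).

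Coro2b (ENSMUSG00000041729, chr9:62419492-62537044, minus strand) was the scarcest member, with 60 to 613 counts per library. It measured 3.36, 1.96 and 2.05 CPM in WT conventional and 8.18, 17.5 and 11.7 CPM in KO conventional libraries. In regulatory cells the WT libraries held 5.63, 7.73 and 5.67 CPM and the KO libraries 9.03, 13.4 and 14.7 CPM. Within each cell type every KO library stood above every WT library, and the 2 KO groups overlapped. The rise in conventional cells was 5.08-fold (log2 2.34, SE 0.32, edgeR adjusted p = 1.47e-04). The regulatory difference was 0.96 (SE 0.30) and missed the threshold (adjusted p = 0.0725). It passed in 2 of 23 alternatives, DESeq2 (adjusted p = 0.0194) and T cell gene scaling (1.44, edgeR adjusted p = 0.0124). From conventional to regulatory cells Coro2b rose 2.59-fold in WT (1.37, SE 0.31, adjusted p = 0.00204). In KO that difference was -0.01 (SE 0.29, adjusted p = 0.970, 95% interval -0.65 to 0.62) and was positive in 6 alternatives.

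Both type II genes were read in KO conventional libraries that also held more regulatory T cell marker RNA and more RNA of other cells. The sum of the 4 regulatory T cell markers was 202, 356 and 329 CPM in KO conventional replicates 1 to 3, on average 2.97-fold that of WT. Ikzf2 rose most among them, from 35.3 to 166 CPM on average. Foxp3 went from 23.7 to 50.1 CPM, Il2ra from 21.1 to 38.2 and Ctla4 from 19.5 to 41.0. Across KO conventional replicates 1 to 3, the macrophage and monocyte sum was 1742, 1352 and 3003 CPM and the neutrophil sum 644, 325 and 332 CPM. In the same order Coro2b measured 8.18, 17.5 and 11.7 CPM and Coro2a 74.1, 69.3 and 78.9 CPM. The part of regulatory T cells or of other cells in these rises was not tested. Both regulatory groups, where Coro2a was highest, held B cell marker sums of 3495 to 4829 and 3867 to 4721 CPM.

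Coro7, the type III member (ENSMUSG00000039637, chr16:4626133-4679777, minus strand), was highest in WT conventional cells. WT conventional libraries held 239, 216 and 210.0 CPM and KO conventional ones 177, 185 and 173 CPM. The regulatory WT libraries held 139, 145 and 167 CPM and the KO libraries 163, 151 and 145 CPM. The conventional groups did not overlap with each other or with the regulatory groups, and the 2 regulatory groups overlapped. In conventional cells KO was lower by -0.31 (SE 0.07, edgeR adjusted p = 0.00506), but higher by 0.27 with T cell gene scaling (adjusted p = 0.305). The regulatory difference was 0.03 (SE 0.07, adjusted p = 0.849). From conventional to regulatory cells it was -0.56 in WT (adjusted p = 3.82e-05) and -0.22 in KO (adjusted p = 0.0210), but 0.10 and 0.38 with T cell gene scaling (adjusted p = 0.719 and 0.159). The KO difference missed the threshold without KO conventional replicate 2 (-0.19, adjusted p = 0.0689) or KO regulatory replicate 3 (-0.18, adjusted p = 0.0805). Coro7 shares its span with Dnaja3 and Vasn, both on the opposite strand. Coro6, the remaining type I gene and outside the 6 members, had 0 to 6 counts per library and was not tested.

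**Figure D3:**
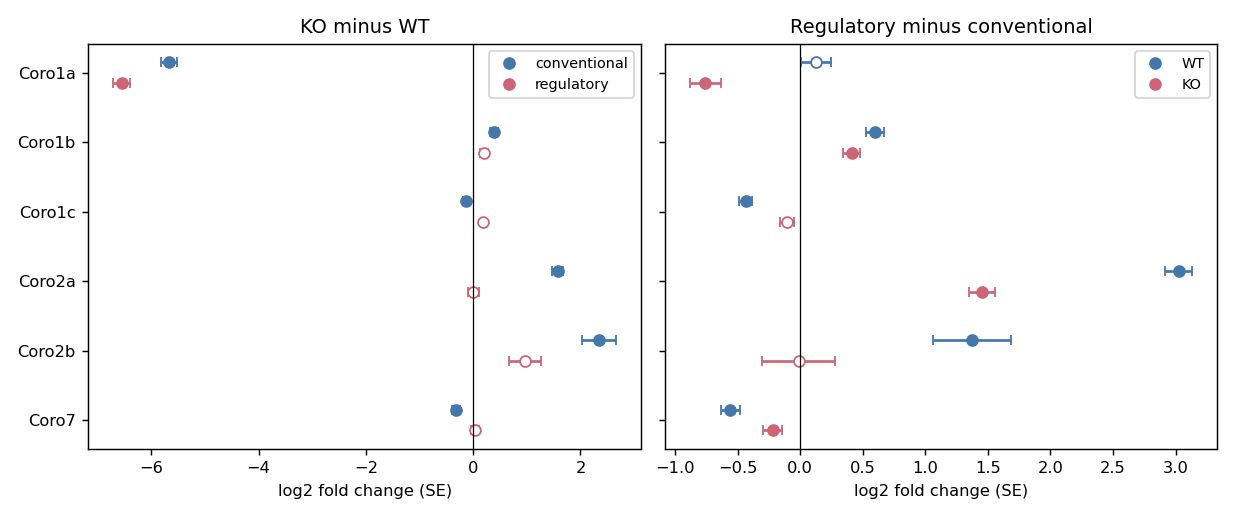
Log2 fold changes with their SE for the 6 coronin genes, left for KO minus WT in conventional and regulatory cells and right for regulatory minus conventional cells in WT and KO. Filled points passed the edgeR test at an adjusted p of 0.05. Coro1a lies at -5.67 and -6.55 on the left, Coro2a at 3.02 in WT on the right, and the values of Coro1c and Coro7 between cell types and in conventional cells were of the opposite sign with T cell gene scaling.

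Scaling set the sign for genes that differ little. When libraries were scaled to the 6 T cell genes instead of by TMM, the median of all genes moved to 0.53 in both knockout contrasts, and to 0.71 in WT and 0.62 in KO between cell types. With TMM those medians were -0.05, 0.00, 0.07 and 0.03. T cell gene scaling called 44.0% of genes higher and 0.377% lower in conventional KO cells, and 32.1% higher and 0.258% lower in regulatory ones. Relative to a median of 0.53, Coro1b at 0.98, Coro2a at 2.17 and Coro2b at 2.91 lay above the bulk of genes in conventional cells. On the same scale Coro1c at 0.45 and Coro7 at 0.27 lay below it.

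**Figure D4:**
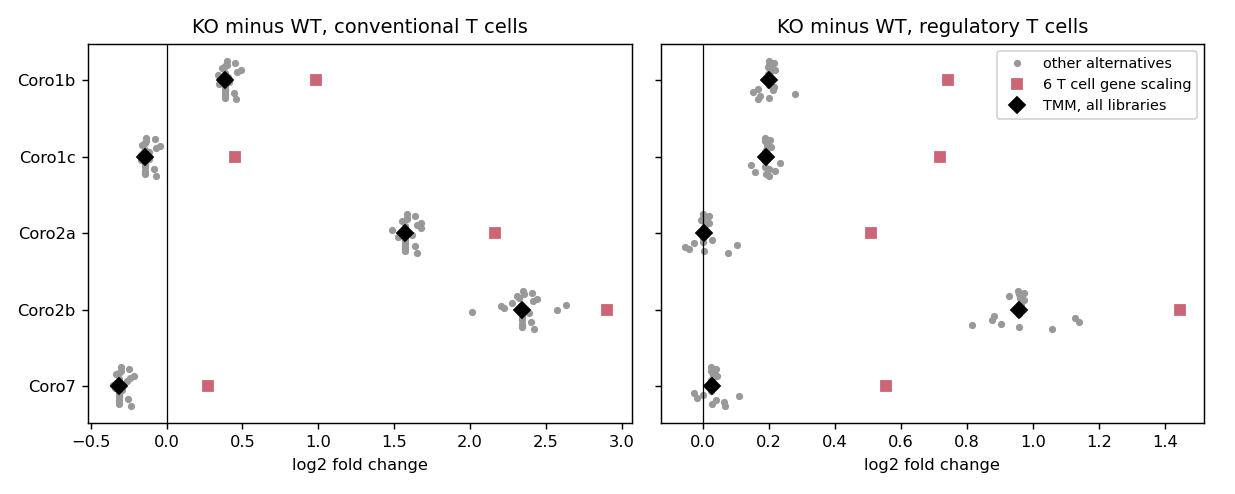
Log2 fold change of KO minus WT for the 5 coronin genes other than Coro1a, in conventional (left) and regulatory cells (right), under TMM with all libraries (black diamonds), under scaling to 6 T cell genes (red squares) and under every other alternative (grey points). Coro1c moves from -0.14 to 0.45 and Coro7 from -0.31 to 0.27 in conventional cells, while Coro1b, Coro2a and Coro2b stay above 0 there.

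The make-up of the family was compared per kilobase of annotated exon, since levels of different genes can be set beside each other only per length. In WT cells Coro1a held 87.4 ± 0.703% of the summed coronin signal in conventional and 84.1 ± 1.16% (SD, n = 3) in regulatory libraries. In KO cells it held 10.2 ± 0.596% and 4.84 ± 0.948% (SD, n = 3). Coro1b was the leading coronin of KO cells, with 57.9 ± 1.35% in conventional and 61.7 ± 3.43% in regulatory libraries, against 7.47 ± 0.0702% and 9.97 ± 0.738% (SD, n = 3) in WT. These shares lie within a library and do not depend on how libraries are scaled to each other. Coro7 was the next in KO conventional cells, at 15.1 ± 0.848%, and Coro2a in KO regulatory cells, at 15.9 ± 2.31% (SD, n = 3). The Coro1a reads left in KO conventional cells, at 16.2 ± 0.654 CPM per kb, were above those of Coro1c at 13.2 ± 0.513 (SD, n = 3).

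The sum of all 6 genes was 944 ± 53.9 CPM per kb in WT and 159 ± 4.25 in KO conventional cells, and 1072 ± 72.2 and 198 ± 8.66 (SD, n = 3) in regulatory cells. The 5 genes other than Coro1a summed to 119 ± 0.516 CPM per kb in WT and 143 ± 4.62 in KO conventional cells, and to 169.9 ± 5.08 and 189 ± 8.90 (SD, n = 3) in regulatory cells. The KO sums of these 5 genes lay above the WT sums without overlap in both cell types, at 139.7 to 148 against 118.6 to 119.6 CPM per kb and 179 to 195 against 164 to 173 CPM per kb. The extra signal was small beside the Coro1a signal lost. WT conventional cells held 825 ± 53.5 and WT regulatory cells 902 ± 71.9 CPM per kb of Coro1a (SD, n = 3).

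**Figure D5:**
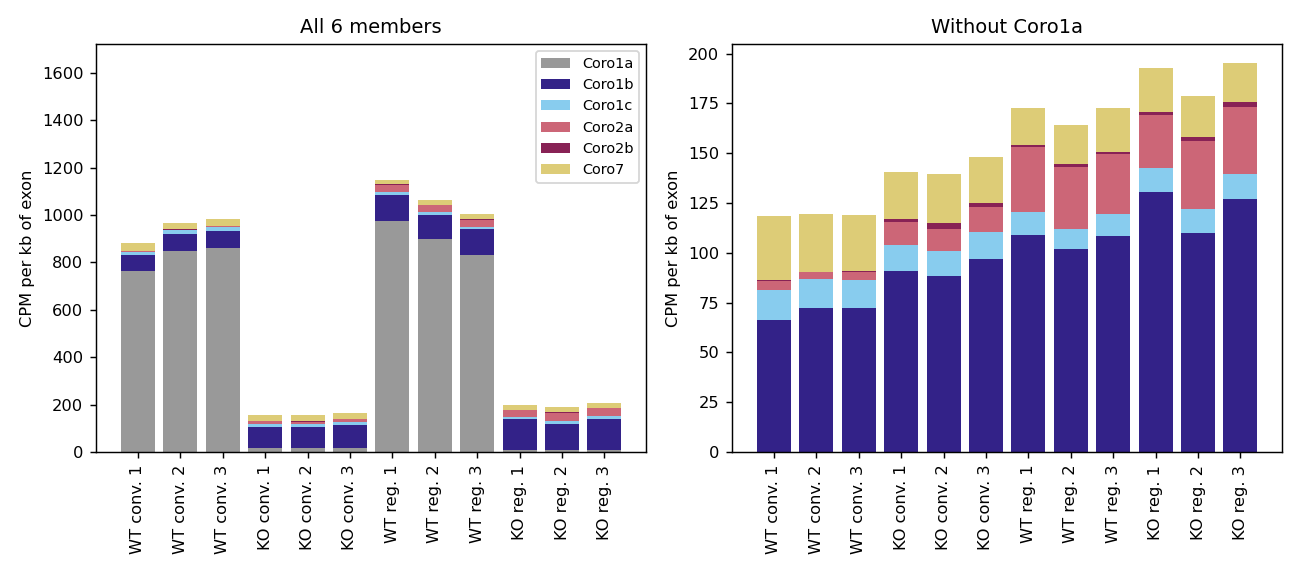
Stacked CPM per kb of exon for the coronin genes in each of the 12 libraries, with all 6 genes on the left and the 5 without Coro1a on the right. Coro1a fills most of each WT bar and little of each KO bar, and the 5 other genes sum to 118.6 to 119.6 in WT and 139.7 to 148 in KO conventional libraries.

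Whether the knockout acted differently in the 2 cell types was tested as an interaction in the same fit, given as the regulatory minus the conventional effect. Of the 6 members 5 passed, 2 higher and 3 lower, where 21.3% of all genes passed, 8.86% higher and 12.4% lower. The Coro2a effect was smaller in regulatory cells by -1.57 (SE 0.15, edgeR adjusted p = 1.45e-04), and this held in all 22 alternatives, with adjusted p up to 0.00182. For Coro1a the difference was -0.89 (SE 0.17, adjusted p = 0.00496), called in all 22 alternatives as well. It sets a fall to 1.06% of WT against a fall to 1.97%. For Coro1c it was 0.33 (SE 0.08, adjusted p = 0.0115), and 0.27 with T cell gene scaling (adjusted p = 0.869). Coro1b did not pass, at -0.19 (SE 0.10, adjusted p = 0.202, 95% interval -0.40 to 0.03).

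The interactions of Coro2b and Coro7 were close to the threshold. For Coro2b the difference was -1.39 (SE 0.43, edgeR adjusted p = 0.0390), and it missed the threshold in 11 of 22 alternatives. These include leaving out WT conventional replicate 2 (-1.25) or 3 (-1.27), KO conventional replicate 2 (-1.06) or 3 (-1.43), WT regulatory replicate 2 (-1.22), or KO regulatory replicate 1 (-1.20) or 2 (-1.50). For Coro7 it was 0.34 (SE 0.11, adjusted p = 0.0402) and missed the threshold in 14 of 22. These include leaving out WT conventional replicate 1 (0.28) or 2 (0.36), KO conventional replicate 1 (0.33) or 3 (0.32), WT regulatory replicate 1 (0.29) or 2 (0.31), or KO regulatory replicate 1 (0.30) or 2 (0.29). Both kept their sign in every alternative run.

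Genes that coronins are known to work with were read from the same fit as 6 lists of 51 genes, of which 50 were tested. Conventional KO cells had 8 higher, 25 lower and 17 not called. Over all genes 48.7% were called there, 23.3% higher and 25.4% lower. With scaling to the 6 T cell genes the split was 22 higher and 0 lower, beside 44.0% and 0.377% of all genes. The directions that follow therefore hold for TMM. In regulatory cells 1 was higher, 3 were lower and 46 were not called, close to the 4.01% higher and 3.82% lower over all genes. With T cell gene scaling 27 were higher and 0 lower there, beside 32.1% and 0.258% of all genes. The median of all genes under TMM was -0.05 in conventional and 0.00 in regulatory cells, and list medians are read beside it.

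The list counts in conventional KO cells are read beside 23.3% of all genes higher and 25.4% lower. Of the 9 subunits of the Arp2/3 complex, which nucleates actin branches, KO conventional cells had 0 higher and 4 lower, with a median of -0.13. Arpc5l stood at -0.41 (edgeR adjusted p = 1.65e-04) and Arpc5 at -0.21 (adjusted p = 0.00643), but both above 0, at 0.18 and 0.38, with T cell gene scaling. Of the 10 genes of filament disassembly, 3 were higher and 6 lower, with a median of -0.22. Dstn, which encodes the cofilin relative destrin, rose by 1.34 (SE 0.26, adjusted p = 0.00134) and stood at 1.95 with T cell gene scaling. Twf2, a twinfilin gene, stood at -0.39 (adjusted p = 0.00101), but 0.20 with that scaling. The 7 tested cofilin kinases and phosphatases had 2 higher and 3 lower and a median of 0.05. Among them the cofilin phosphatase gene Ssh2 stood at -0.39 (adjusted p = 3.74e-04) and the kinase gene Limk2 at -0.30 (adjusted p = 5.10e-04), but at 0.20 and 0.29 with that scaling.

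The same shares, 23.3% of all genes higher and 25.4% lower, stand beside the next 3 lists. Of 11 nucleation promoters and branch stabilisers, conventional KO cells had 2 higher and 4 lower, with a median of -0.07. Wasf2, of the WAVE complex, stood at -0.33 (edgeR adjusted p = 0.00229) and Was, the Wiskott-Aldrich syndrome protein gene, at -0.25 (adjusted p = 0.00255), but at 0.26 and 0.35 with T cell gene scaling. The NCoR complex, in which coronin 2A is found, had 1 of 6 genes higher and 3 lower, with a median of -0.17. Its Tbl1x stood at -0.42 (adjusted p = 3.30e-04) and Gps2 at -0.38 (adjusted p = 6.72e-04), against 0.17 and 0.21 with that scaling. The 7 Golgi partners of coronin 7 had 0 higher and 5 lower, with a median of -0.28. The endocytic adaptor gene Eps15 stood at -0.49 (adjusted p = 6.28e-06) and Ap1m1, of the AP-1 adaptor, at -0.42 (adjusted p = 7.37e-05), against 0.11 and 0.17 with that scaling.

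In regulatory cells, where 7.83% of all genes were called, the Arp2/3 complex, the cofilin kinases and phosphatases, and the nucleation promoters had medians of -0.05, 0.05 and 0.08. With T cell gene scaling 4 of 9, 5 of 7 and 6 of 11 of their genes were called higher, beside 32.1% of all genes. Gmfb, a factor that removes actin branches, was the only called disassembly gene of 10, at -0.24 (edgeR adjusted p = 0.00616), but 0.30 with T cell gene scaling. Of the coronin 7 partners, the ubiquitin ligase genes Cul3 at -0.28 (adjusted p = 0.0129) and Klhl20 at -0.24 (adjusted p = 0.0477) were called, against 0.24 and 0.30 with that scaling.

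Between cell types, 17 of the same 50 genes were higher in WT regulatory cells, 23 lower and 10 not called under TMM, beside 39.1% and 33.3% of all genes. In KO 19 were higher, 18 lower and 13 not called, beside 36.1% and 31.7% of all genes. With T cell gene scaling the split was 28 higher and 2 lower in WT, beside 57.3% and 6.07% of all genes. In KO it was 29 higher and 1 lower, beside 52.1% and 6.75% of all genes. The Arp2/3 complex had 5 of 9 genes higher and 0 lower in WT, with a median of 0.15, and 9 higher with T cell gene scaling. The NCoR complex had 0 of 6 higher and 4 lower, with a median of -0.58, but 2 higher, 0 lower and a median of 0.06 with T cell gene scaling. The WT and KO contrasts share groups with the knockout contrasts, so their values are set side by side only. The difference of the knockout effect was called for 13 of the 50 genes above 0 and 3 below 0 under TMM, beside 8.86% and 12.4% of all genes. With T cell gene scaling, where 0.188% of all genes were called above 0 and 5.78% below 0, 50 of 50 were not called by edgeR.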

How the data were processed

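The authors deposited 1 table that gives raw counts of reads for each Ensembl gene in 12 libraries made with a stranded messenger RNA kit. Per the submitters' processing notes it was mapped with STAR (listed as version 1.7.20) to GRCm38. Per the file headers and name, counting was reverse-stranded, and the table ends its gene list with 4 tallies, left out here, of reads that no gene received. These include multimapping reads, at 9.25% to 11.1% of reads in conventional and 15.8% to 19.5% in regulatory libraries. They also include reads outside genes, at 13.3% to 15.7% in conventional and 4.98% to 6.87% in regulatory libraries. Neither tally overlapped between the cell types, so every contrast between cell types also carries this difference. Its part in the coronin results was not tested. The annotation release is not given in the sources used here. Gene positions and exon lengths come from GENCODE M21 (GRCm38). Symbols were found for 45143 IDs, holding no less than 99.9% of the counts in any library. Of the 6 members 5 have a RefSeq promoter entry.

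Tests used edgeR 4.0.16, with DESeq2 1.42.0 and limma 3.58.1 as alternatives, under R 4.3.3. Plots were made in matplotlib 3.10.9 under Python 3.11.15. The 4 groups were fitted together as 1 model over 12 libraries (filterByExpr, minimum count 10, minimum total 15, TMM, two-sided quasi-likelihood F test, Benjamini-Hochberg adjustment, threshold 0.05). The biological coefficient of variation was 0.155. Intervals are 95%. The procedure was also run on simulated data with few changed genes and the same spread for all genes. That setting is simpler than these libraries and does not bear on their shifts in marker RNA. Overlap means that the ranges of the 3 libraries of each group meet.

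Members, partner lists and markers were chosen with earlier results of these data known. The rule names the 6 members, Coro6, up to 2 genes per partner list with the smallest p in each knockout contrast, overlapping and adjacent genes, and the 3 genes closest in pattern to each member. Only called partner genes are named for regulatory cells. Ptprcap, Tbc1d2 and Trim14 among the neighbours, and Foxp3, Cd4, Cd8a and Cd8b1 among the markers, were picked once their values were known. A gene that the rule chose is not reported here. Of the partners, Pdxp was not matched in the table.

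Alternatives were RLE and upper-quartile factors, scaling to 6 T cell genes, DESeq2, limma-voom, no filter, a filter of 5 CPM in 3 libraries, a fit to the compared groups alone, a block for the replicate number, leaving out each library in turn and a threshold of 0.01. Chosen after seeing the data were leaving out the 2 libraries in which Xist and Y-linked genes each passed 10 CPM and a term for those reads in conventional libraries.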

Additional observations from a re-analysis of the deposited data

Results flagged for a closer look

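The effect of the knockout on 5 coronin genes differed between the cell types by a test of the difference itself, edgeR's quasi-likelihood interaction with Benjamini-Hochberg adjustment, which called 21.3% of all genes. Values are regulatory minus conventional log2 effects. Coro2a differed by -1.57 (adjusted p = 1.45e-04), from a rise of 1.58 in conventional cells to 0.00 in regulatory ones. Coro1a differed by -0.89 (adjusted p = 0.00496), a deeper loss in regulatory libraries. Coro2b differed by -1.39 (adjusted p = 0.0390), from 2.34 to 0.96, and missed the threshold in 11 of 22 alternatives. Coro1c differed by 0.33 (adjusted p = 0.0115), from -0.14 in conventional cells to 0.19 in regulatory ones with TMM. Coro7 differed by 0.34 (adjusted p = 0.0402), from -0.31 to 0.03. Neither regulatory value was called (adjusted p = 0.0554 for Coro1c and 0.849 for Coro7). For both genes the effects in both cell types were above 0 with T cell gene scaling. With that scaling the Coro1c difference was not called (adjusted p = 0.869), and Coro7 missed the threshold in 14 of 22 alternatives.

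Marker sums differed in the same contrast. The KO to WT ratio of mean sums was 8.39 for macrophages and monocytes, 63.7 for neutrophils and 5.65 for NK cells in conventional libraries, and 1.30, 2.69 and 1.40 in regulatory ones. For the 4 regulatory T cell markers it was 2.97 and 0.976, for B cells 8.85 and 1.05, for dendritic cells 4.22 and 1.55, and for erythroid markers 4.11 and 1.01. For platelets it was 2.15 and 2.18, for stroma and endothelium 0.880 and 1.25, and for T cells 0.666 and 0.706. Their part in the 5 differences was not tested.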

How the results depend on the processing

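The number of members called in conventional KO cells was 6, and 4 to 6 in the other alternatives. In regulatory KO cells it was 1, but 2 with upper-quartile factors, 5 with T cell gene scaling, 3 with DESeq2, 2 with the stricter filter, and 1 to 2 with 1 library left out (2 without WT regulatory replicate 1 or KO regulatory replicate 2). Between cell types it was 5 in WT (4 to 6) and 4 in KO (3 to 5). For the interaction it was 5, but 3 with T cell gene scaling, 2 at a threshold of 0.01, and 3 to 5 with 1 library left out. It was 3 without any 1 of WT conventional replicate 2, KO conventional replicate 3, WT regulatory replicate 2, and KO regulatory replicates 1 or 2. Leaving out 1 library gave 5 to 6 calls in conventional KO cells, 5 to 5 between cell types in WT and 3 to 5 in KO.

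Whether replicate numbers pair the samples cannot be settled from 3 libraries per group. Deviations of same-numbered WT and KO libraries correlated at -0.08, -0.07 and 0.28 in conventional and -0.25, 0.26 and -0.68 in regulatory cells. Those of same-numbered conventional and regulatory libraries correlated at -0.16, -0.18 and -0.20 in WT and 0.17, 0.30 and -0.06 in KO. Xist and Y-linked reads matched by number between WT and KO conventional libraries, but not between regulatory ones. With the replicate block the interaction count was 3, Coro2b and Coro7 having adjusted p of 0.0639 and 0.0743, and the other 4 counts were unchanged at 6, 1, 5 and 4.

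Signs turned with T cell gene scaling for Coro1c (0.45) and Coro7 (0.27) in conventional KO cells, for Coro1c (0.20) and Coro7 (0.10) between cell types in WT, and for Coro1c (0.47), Coro2b (0.53) and Coro7 (0.38) in KO. Values near 0 also turned. Coro2a in regulatory KO cells was -0.0045 with limma-voom and -0.053 to 0.10 with 1 library left out, and Coro7 there -0.028 to 0.11. Coro2b between cell types in KO was 0.034 with limma-voom, 0.013 with the replicate block, 0.17 without the 2 libraries holding Xist and Y-linked reads, and -0.25 to 0.31 with 1 library left out. The cause was not tested. Over all genes, calls ranged from 5229 to 8463 around 7749 in conventional KO cells, 253 to 5157 around 1246 in regulatory ones, 8591 to 11727 around 11530 and 8170 to 11110 around 10794 between cell types in WT and KO, and 951 to 4052 around 3393 for the interaction. In conventional libraries with Xist alone (2 against 2) and with Y-linked reads alone (1 against 1), the KO minus WT values of Coro1b were 0.37 and 0.42, of Coro1c -0.19 and -0.05, of Coro2a 1.51 and 1.69, of Coro2b 2.27 and 2.52 and of Coro7 -0.33 and -0.28. Depth limits Coro2b most, at 60 to 613 counts per library.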

Other observations

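For each coronin the 3 genes of most similar pattern were sought among 13002 genes of at least 1 CPM on average. The measure was the root mean square difference of centred log2(CPM + 0.5) over all 12 libraries, a description in which all genes share the same libraries, depth and cell make-up. Coro2a, which itself varied by 1.25 around its mean, was closest to Tk1 (0.178), the thymidine kinase of dividing cells, to Prnp (0.178), the prion protein gene, and to Nuak2 (0.215), a kinase gene. Tk1 measured 2.75, 7.85, 24.2 and 24.5 CPM on average in WT conventional, KO conventional, WT regulatory and KO regulatory cells, and Prnp 3.39, 9.89, 31.4 and 30.1. Their intermediate level in KO conventional cells follows from their choice by closeness to Coro2a and is no separate result.

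Coro2b, varying by 0.92, was closest to Ankrd6 (0.244), Ttbk1 (0.247) and Ttc39c (0.282). Coro1b, varying by 0.30, was closest to Bak1 (0.0556), a gene of mitochondrial cell death, Taldo1 (0.0656), a pentose phosphate enzyme gene, and Dnal4 (0.0713). Coro7, varying by 0.24, was closest to Rere (0.0435), Gripap1 (0.0461) and D2hgdh (0.0541), and Coro1c, varying by 0.17, to Map3k4 (0.0585), Med22 (0.0602) and Ccdc97 (0.0636). Coro1a, varying by 3.06, had no close match. The nearest were Gm47283 (2.15), Ehd3 (2.28) and Ly6c1 (2.31). Ehd3, an endosomal recycling gene, measured 286, 125, 185 and 40.7 CPM in the same order of groups.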
